A study of Mus musculus with 16 samples.

Results

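The regions described here are the H3K9me3 peaks of late catagen non-HFSCs (non-LC-HFSCs) that share at least 1 bp with an H3K4me3 peak of the same cells. They were chosen by comparing these peak lists, and 1769 of the 18236 H3K9me3 peaks met the rule, so the overlap itself is a selection and not a result. The 1769 peaks lay on 1712 of the 18996 H3K4me3 peaks of non-LC-HFSCs. The whole series holds 219698 peaks in 12 lists, 1 for each of 3 histone marks in 4 populations of sorted skin cells.

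Trimethylation of histone H3 on lysine 4 marks the starts of genes that are active or ready for transcription, most of them in CpG-rich DNA. Trimethylation on lysine 9 is known from silent chromatin: satellite and other repeats, zinc finger gene clusters and the methylated copy of imprinted control regions. The marks are written and read by different enzymes and are commonly found on different nucleosomes, so places that carry peaks of both are of interest. A ChIP-seq peak list from a cell population does not tell whether both marks sat on the same nucleosome, the same allele or in the same cell.

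All populations came, by their labels, from male CD1 x FVB wild-type mice, 15 to 20 animals pooled, and none carried a transgene or received a treatment. Hair follicle stem cells (HFSCs) of the bulge were sorted as CD34+/α6-integrin+ and the non-HFSCs as CD34-/α6-integrin+, a gate of epidermis and lower outer root sheath cells. Early anagen cells (EA-HFSCs and non-EA-HFSCs) came from postnatal day (PD) 22 to 25 and late catagen cells (LC-HFSCs and non-LC-HFSCs) from PD 38 to 44. Chromatin was cut into mononucleosomes with micrococcal nuclease and precipitated for H3K4me3 (ActiveMotif), H3K27me3 (Millipore) or H3K9me3 (Millipore or Abcam), with an IgG library for each population as the control.

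Each population and mark gave 1 peak list, called after the study pooled its replicates, so no list has a replicate and no test between populations was possible. Shares are given with 95% Wilson intervals and differences of shares with Newcombe intervals, in percentage points. Both cover counting error only. The score of a peak is −10 times the log10 of its p-value in the peak caller, and the lowest scores were 40 for H3K9me3 and H3K27me3 and 50 for H3K4me3. The H3K9me3 lists held 42277 peaks in EA-HFSCs, 17873 in non-EA-HFSCs, 1414 in LC-HFSCs and 18236 in non-LC-HFSCs, and the read depth behind them is not in the lists. The sorted cells had H3K4me3 at the starts of 16 of 18 basal keratinocyte markers in non-LC-HFSCs, Krt5, Krt14 and Itgb4 among them, at 12 of 17 bulge markers, 4 of 10 fibroblast markers, 2 of 12 melanocyte markers and 1 of 12 leukocyte markers.

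The sequences under the peaks are shown first, because their base content separated the H3K9me3 peaks on H3K4me3 from the rest. Each is 200 bases of mm9, plus strand, centred on the H3K9me3 peak, and CG dinucleotides are in capitals. The first 3 are the highest-scoring peaks with an H3K9me3 peak in EA-HFSCs too, among windows free of untranslated exons: near Abt1 (chr13:23493872-23494071, intergenic, score 219), at Zic4 (chr9:91257977-91258176, promoter, score 197) and near Sox2 (chr3:34562944-34563143, intergenic, score 187).
Abt1 side: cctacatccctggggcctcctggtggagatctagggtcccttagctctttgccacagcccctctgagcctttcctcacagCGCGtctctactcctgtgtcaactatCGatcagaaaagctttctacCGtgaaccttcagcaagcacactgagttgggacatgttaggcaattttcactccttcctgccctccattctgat
Zic4: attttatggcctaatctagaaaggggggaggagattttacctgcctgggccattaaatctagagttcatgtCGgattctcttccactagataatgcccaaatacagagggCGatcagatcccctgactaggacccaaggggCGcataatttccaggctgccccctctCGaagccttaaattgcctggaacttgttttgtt
Sox2 side: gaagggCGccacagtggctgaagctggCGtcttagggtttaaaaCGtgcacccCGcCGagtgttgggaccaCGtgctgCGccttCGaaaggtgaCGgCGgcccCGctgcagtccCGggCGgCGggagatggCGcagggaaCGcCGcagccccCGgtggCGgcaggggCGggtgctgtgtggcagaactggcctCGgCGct

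The next 3 are the highest-scoring without an EA-HFSC peak: near 3110070M22Rik (chr13:120278247-120278446, intergenic, score 279), at Efnb2 (chr8:8661269-8661468, promoter, score 141) and near Wnt10a (chr1:74863713-74863912, intergenic, score 132).
3110070M22Rik side: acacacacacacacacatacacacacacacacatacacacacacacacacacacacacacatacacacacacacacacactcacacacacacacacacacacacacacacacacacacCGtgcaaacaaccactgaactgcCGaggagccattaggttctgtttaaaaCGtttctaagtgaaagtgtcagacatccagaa
Efnb2: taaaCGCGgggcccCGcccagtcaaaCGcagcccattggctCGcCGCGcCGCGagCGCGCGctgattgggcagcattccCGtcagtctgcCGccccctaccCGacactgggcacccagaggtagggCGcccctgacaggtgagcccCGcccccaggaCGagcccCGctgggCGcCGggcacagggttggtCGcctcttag
Wnt10a side: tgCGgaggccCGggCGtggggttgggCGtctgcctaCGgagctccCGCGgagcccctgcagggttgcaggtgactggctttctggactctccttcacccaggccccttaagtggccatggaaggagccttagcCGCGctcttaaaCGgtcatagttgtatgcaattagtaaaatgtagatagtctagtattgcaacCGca

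These high scorers were not typical of the group, so a pair of promoter peaks that lay wholly inside their H3K4me3 peak and had an EA-HFSC peak was added after the values were seen: at Sdccag8 and Cep170 (chr1:178744478-178744677, score 118) and at Anapc7 (chr5:122872095-122872294, score 115). The last sequence is the highest-scoring H3K9me3 peak off H3K4me3, in an annotated exon of Gm10800 (chr2:98506842-98507041, score 3100).
Sdccag8 and Cep170: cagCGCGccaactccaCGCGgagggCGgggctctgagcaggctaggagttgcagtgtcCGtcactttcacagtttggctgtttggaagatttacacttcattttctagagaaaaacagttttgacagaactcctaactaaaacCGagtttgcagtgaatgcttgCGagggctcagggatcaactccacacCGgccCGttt
Anapc7: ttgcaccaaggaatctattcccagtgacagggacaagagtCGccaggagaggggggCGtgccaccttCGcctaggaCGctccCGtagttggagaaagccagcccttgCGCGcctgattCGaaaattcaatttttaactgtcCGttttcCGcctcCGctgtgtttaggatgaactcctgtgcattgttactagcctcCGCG
Gm10800, off H3K4me3: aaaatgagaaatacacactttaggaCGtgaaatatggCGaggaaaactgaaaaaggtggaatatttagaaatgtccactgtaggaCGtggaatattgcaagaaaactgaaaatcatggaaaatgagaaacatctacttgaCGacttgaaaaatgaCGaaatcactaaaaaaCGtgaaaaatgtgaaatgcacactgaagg

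The Efnb2 and Sox2-side windows each held 22 CG in 200 bases. The Anapc7 window held 13, the Wnt10a-side window 11 and the Sdccag8 window 10. The Abt1-side and Zic4 windows held 4 each and the 3110070M22Rik-side window, whose first part is a run of CA repeats, held 3. The Gm10800 window held 6 CG at a GC content of 34.5%.

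Over all H3K9me3 peaks on placed chromosomes, the median GC content was 58.8% (58.5 to 59.1%) for the 1765 peaks on H3K4me3 and 44.7% (44.6 to 44.8%) for the 16377 off it. The median ratio of observed to expected CpG was 0.727 (0.717 to 0.736) on H3K4me3 and 0.163 (0.161 to 0.165) off it. The rule fixes part of this difference, since H3K4me3 lies on CpG-rich DNA: the H3K4me3 peaks beneath had a median GC content of 51.8% and the other H3K4me3 peaks 52.1%. The H3K9me3 peaks thus covered a part of their H3K4me3 peak that was richer in G and C than the peak as a whole.

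The H3K9me3 peaks on H3K4me3 were narrow and scored close to the calling threshold. Their median width was 617 bp (quartiles 545 and 748 bp) and their median score 50.2, against 575 bp and 49.6 for the H3K9me3 peaks off H3K4me3. Of the 1769, 869 scored under 50 and 50 scored 100 or more. The highest score was 441 on H3K4me3 and 3100 off it. Of the 1769, 1638 (92.6%) lay wholly inside their H3K4me3 peak, covering a median of 24.4% of it. Only 66 had less than 50% of their length on H3K4me3. At the edge of the rule, the smallest overlaps were 1, 3 and 11 bp, at scores of 40.4, 73.0 and 441, and the nearest peaks left out ended 3, 4 and 5 bp from an H3K4me3 peak, at scores of 158, 50.0 and 52.4. There were 22 peaks with an overlap under 100 bp and 23 left out within 100 bp of H3K4me3.

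The H3K4me3 peaks beneath were wide and strong. Their median width was 2535 bp (quartiles 1993 and 3193 bp) against 1702 bp (1064 and 2426 bp) for the other 17284 H3K4me3 peaks. Their median H3K4me3 score was 2139 against 557. These widths and scores belong to the list that the rule used, and a wider peak offers more bases for an overlap, so they are given as a description. By quartile group of H3K4me3 width, from narrow to wide, 1.45%, 4.59%, 11.6% and 18.4% of the peaks lay beneath an H3K9me3 peak. Per Mb of H3K4me3 the same quartile groups held 18.2, 31.9, 54.9 and 55.9 H3K9me3 peaks, so the count per base was higher from group to group up to the third and then differed little. By quartile group of H3K4me3 score the shares were 1.39%, 2.55%, 7.81% and 24.3%. A single H3K9me3 peak lay on 1654 of the 1712 H3K4me3 peaks, 57 carried 2 and 1 carried 3, a peak of 4822 bp near Mfsd11.

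**Figure D1:**
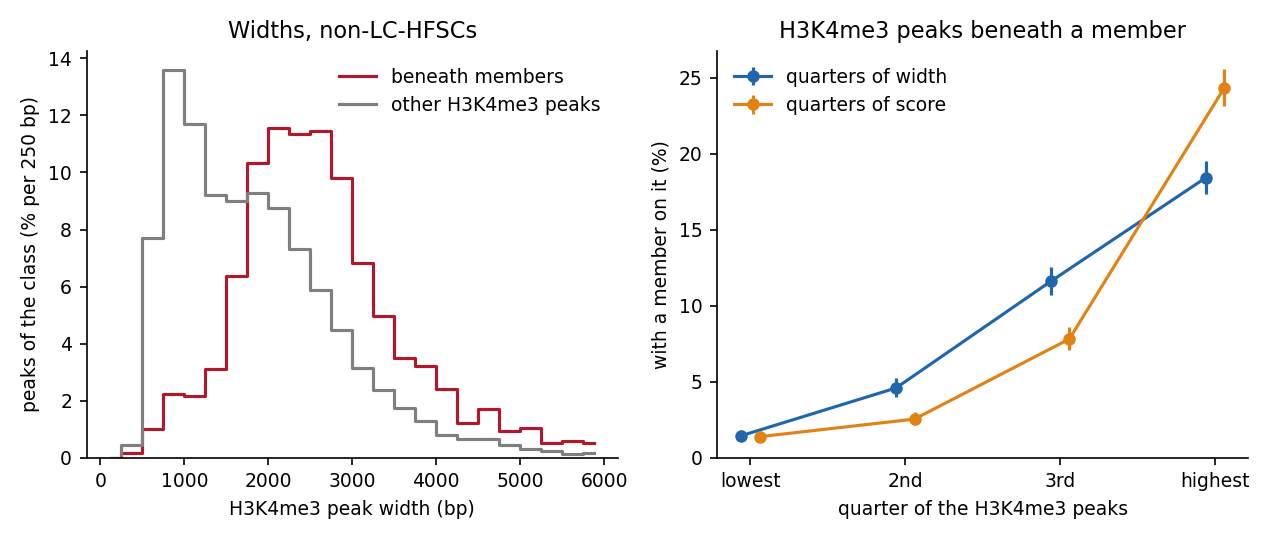
The left panel plots the width of H3K4me3 peaks of non-LC-HFSCs (bp, x axis) as the percent of each class per 250 bp, up to 6000 bp (52 peaks beneath H3K9me3 and 108 others were wider); the right panel plots the percent of H3K4me3 peaks that lay beneath an H3K9me3 peak, by quartile group of H3K4me3 width or score, with 95% Wilson intervals. The peaks beneath H3K9me3 were shifted to larger widths, and the share beneath H3K9me3 went from 1.45% to 18.4% over the width quartile groups and from 1.39% to 24.3% over the score quartile groups.

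The 5 widest H3K4me3 peaks beneath H3K9me3 lay at 3 genes of transcription factors (Gata3, Tcfap2a and Zbtb7b), at Plec and at Tnrc18. The widest ran over 17683 bp at Gata3, a transcription factor of the inner root sheath and epidermis, and carried an H3K9me3 peak of score 51.9 (chr2:9796608-9797489). A peak of 16756 bp at Tcfap2a, which encodes the keratinocyte factor AP-2α, carried one of score 54.5 between genes (chr13:40832747-40833592). Zbtb7b had an H3K4me3 peak of 14128 bp with an intronic H3K9me3 peak of score 65.3 (chr3:89195197-89196476), 1 of 2 on it. Tnrc18 had 13128 bp with score 45.8 (chr5:143578011-143578874), and Plec, which encodes the linker plectin, 11233 bp with score 41.9 (chr15:76025326-76026020). In all 5, EA-HFSCs had an H3K9me3 peak at the same place, with scores of 69.7, 80.7, 192, 178 and 83.0 in the order given, and non-EA-HFSCs and LC-HFSCs had none. None of the 5 carried H3K27me3 in any population.

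Of the 1769 H3K9me3 peaks on H3K4me3, 1377 also overlapped an H3K9me3 peak of EA-HFSCs (77.8%, 75.8 to 79.7%). The share was 17.8% (17.3 to 18.4%) for the H3K9me3 peaks off H3K4me3 and 23.7% for all H3K9me3 peaks of non-LC-HFSCs. The difference between peaks on and off H3K4me3 was 60 points (57.9 to 62.0). With the other populations the order between peaks on and off H3K4me3 turned around. Only 32 of the 1769 overlapped an H3K9me3 peak of non-EA-HFSCs (1.81%, 1.28 to 2.54%), against 29.0% (28.3 to 29.7%) of the peaks off H3K4me3 and 26.4% of all. Only 11 overlapped one of LC-HFSCs (0.622%, 0.348 to 1.11%), against 6.31% (5.95 to 6.69%) off H3K4me3 and 5.76% of all. Set against other H3K4me3 peaks the order did not turn around. Of the 1712 H3K4me3 peaks beneath, 29 had a non-EA-HFSC H3K9me3 peak (1.69%), against 54 of the other 17284 (0.312%). For LC-HFSCs it was 9 of the 1712 (0.526%) against 1 of the 17284. The EA-HFSC list was the longest of the 4. With only its 17873 highest-scoring peaks, as many as non-EA-HFSCs had, 62.8% (60.5 to 65.0%) of the peaks on H3K4me3 and 11.4% (10.9 to 11.9%) of those off it still overlapped one.

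A total of 1358 of the 1769 had H3K9me3 in EA-HFSCs and in neither of the other populations, and 377 in none of the 3. Both counts were made for the 1769 only, with no share over all H3K9me3 peaks beside them. They rest on lists of very unequal length, so they are not read as a trait of the group. H3K4me3, which the rule puts under all 1769, was common to the populations: 1669 of the 1769 (94.3%) overlapped an H3K4me3 peak in all 3 others. Sharing was frequent for the other H3K4me3 peaks of non-LC-HFSCs too. Of those, 88.6% overlapped an H3K4me3 peak in EA-HFSCs, 94.0% in non-EA-HFSCs and 74.1% in LC-HFSCs, against 98.5%, 99.2% and 95.2% of the 1712 beneath H3K9me3. H3K27me3, the mark of Polycomb repression, covered 113 of the 1769 in the same cells (6.39%, 5.34 to 7.62%), against 13.1% (12.6 to 13.6%) of the peaks off H3K4me3 and 12.4% of all H3K9me3 peaks. Set against other H3K4me3 peaks the shares were close. H3K27me3 overlapped 6.95% (5.84 to 8.25%) of the 1712 beneath and 8.00% (7.61 to 8.42%) of the others, with overlapping intervals. The 113 sat on narrower H3K4me3 peaks (median 1378 bp against 2608 bp), and 72.6% (63.7 to 79.9%) of them had an EA-HFSC H3K9me3 peak, against 78.2% (76.1 to 80.1%) of the 1656 without H3K27me3. These intervals overlapped.

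**Figure D2:**
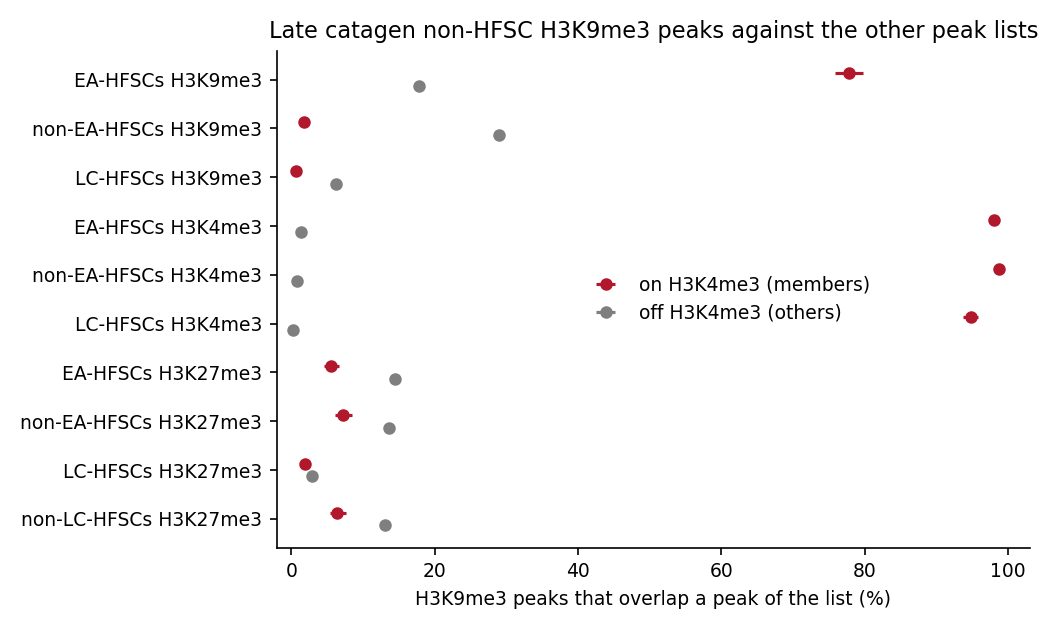
Percent of H3K9me3 peaks of non-LC-HFSCs (x axis) that overlap a peak of each list named on the y axis, for the 1769 peaks on H3K4me3 (red) and the 16467 off it (grey), with 95% Wilson intervals that are mostly smaller than the points. For H3K9me3 the red point lies far above the grey one in EA-HFSCs (77.8% against 17.8%) and below it in non-EA-HFSCs (1.81% against 29.0%) and LC-HFSCs (0.622% against 6.31%).

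Where a late catagen non-HFSC peak overlapped an EA-HFSC peak, their middles were a median of 197 bp apart (quartiles 92 and 387 bp). Only overlapping pairs were counted, which limits this distance in advance. The same non-LC-HFSC peaks had their middles a median of 259 bp (quartiles 122 and 510 bp) from the middle of their H3K4me3 peak. The EA-HFSC peaks over the non-LC-HFSC peaks had a median width of 1482 bp, against 649 bp for all EA-HFSC H3K9me3 peaks. They covered the non-LC-HFSC peak wholly in most cases. A wider peak offers more bases for an overlap, so the widths are given as a description. Of all 42277 EA-HFSC H3K9me3 peaks, 31915 lay off EA-HFSC H3K4me3, and widths were not compared among those on it. Seen from EA-HFSCs, 10362 H3K9me3 peaks lay on EA-HFSC H3K4me3, and 1344 of these (13.0%, 12.3 to 13.6%) overlapped a non-LC-HFSC peak of the group described here. The share was 8.10% (7.12 to 9.22%) in the lowest-scoring quartile of them and 16.9% (15.5 to 18.4%) in the highest. Off EA-HFSC H3K4me3 it was 17 of 31915, which the rule largely decides, since 98.1% of the group overlapped an EA-HFSC H3K4me3 peak.

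The share with an EA-HFSC peak was higher among peaks with a higher score in non-LC-HFSCs, though not from step to step. It was 73.0% (69.0 to 76.6%) of the 514 peaks scoring 40 to 45, 78.0% (73.4 to 82.0%) of the 355 scoring 45 to 50 and 75.5% (71.3 to 79.3%) of the 437 scoring 50 to 60. Above that it was 85.3% (80.7 to 89.0%) of the 279 scoring 60 to 75, 83.6% (76.4 to 88.9%) of the 134 scoring 75 to 100 and 90.0% (78.6 to 95.7%) of the 50 scoring 100 or more. Peaks off H3K4me3 went from 12.4% (11.5 to 13.3%) to 51.4% (47.9 to 55.0%) over the same range, so the gap between the classes was smaller among strong peaks. With every list held to scores of at least 100, the share was 54.5% of 44 on H3K4me3 and 22.4% off it.

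Counted over H3K4me3 peaks, 1388 of the 1712 beneath a non-LC-HFSC H3K9me3 peak had an EA-HFSC H3K9me3 peak (81.1%, 79.2 to 82.9%), against 41.7% (41.0 to 42.5%) of the other 17284 and 45.3% of all. Much of this difference went with the strength of H3K4me3. In the highest-scoring quartile of H3K4me3 peaks the shares were 88.6% (86.7 to 90.4%) and 85.2% (84.0 to 86.3%), a difference of 3.45 points (1.19 to 5.53). In the lowest-scoring quartile they were 48.5% (36.8 to 60.3%) of 66 and 8.86% (8.08 to 9.71%), a difference of 39.6 points (28.0 to 51.5). Weighting the other peaks to the same spread of H3K4me3 scores as the peaks beneath gave them a share of 75.1%, and weighting to the same widths 62.9%. The difference of 39.3 points (37.3 to 41.3) was therefore 5.95 points at equal H3K4me3 score and 18.2 points at equal width. A score of exactly 3100 was shared by 326 of the peaks beneath and 548 of the others. Weighting by score could not separate strength among these. By width the difference was 35.6 points (24.4 to 47.4) in the narrowest quartile and 13.8 points (11.1 to 16.2) in the widest. By GC content it was 54.7 points (50.0 to 58.7) in the lowest quartile and 25.4 points (19.9 to 30.4) in the highest. Strong H3K4me3 peaks of non-LC-HFSCs were mostly sites of H3K9me3 peaks in EA-HFSCs, whether or not non-LC-HFSCs had an H3K9me3 peak there.

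**Figure D3:**
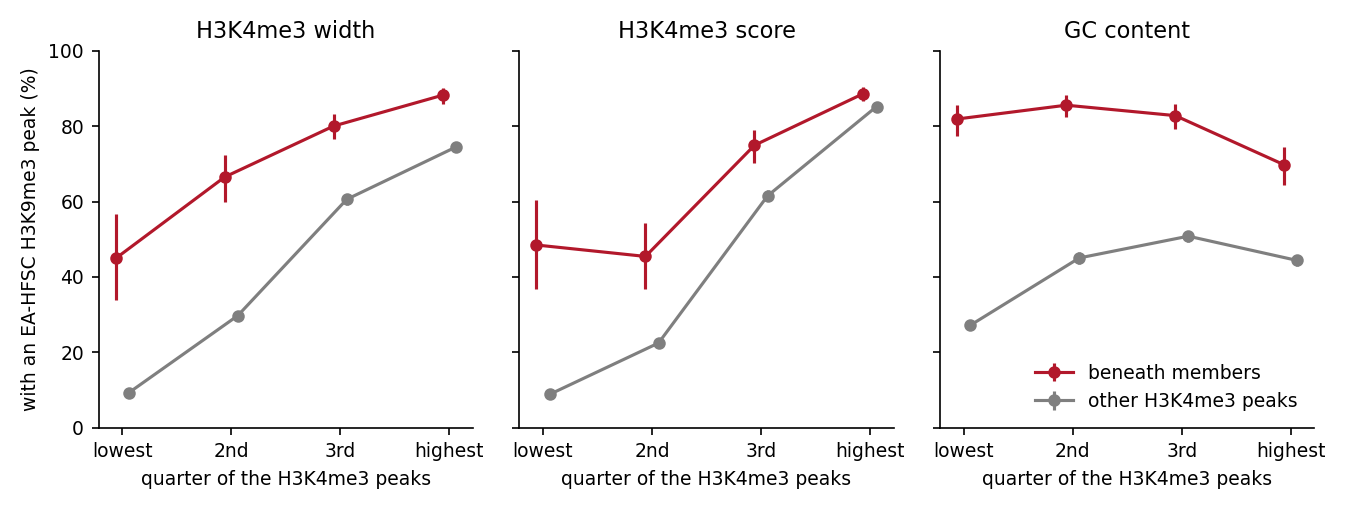
Percent of H3K4me3 peaks of non-LC-HFSCs that overlap an EA-HFSC H3K9me3 peak (y axis), by quartile group of H3K4me3 width, H3K4me3 score and GC content (x axis), for peaks beneath a non-LC-HFSC H3K9me3 peak (red) and others (grey), with 95% Wilson intervals. The red points lie above the grey in every quartile, and the gap narrows from 39.6 to 3.45 points over the score quartile groups.

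The 392 peaks without an EA-HFSC H3K9me3 peak had somewhat lower scores (median 48.5 against 50.9) and lay on narrower H3K4me3 peaks (median 2301 bp, 2163 to 2399 bp, against 2631 bp, 2578 to 2682 bp). Their median observed to expected CpG ratio was 0.649 (0.615 to 0.680) against 0.740 (0.732 to 0.746). By position, 14.6% (11.4 to 18.4%) of them had their middle between genes against 5.09% (4.05 to 6.39%) of those with an EA-HFSC peak, and 38.1% (33.4 to 43.0%) against 50.5% (47.9 to 53.1%) lay in a promoter, here 1000 bp upstream to 100 bp downstream of a protein-coding transcript start.

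Of all 1765 on placed chromosomes, 843 had their middle in a promoter (47.8%, 45.4 to 50.1%), 574 in an intron (32.5%), 118 in another exon (6.69%), 94 in a 5′ untranslated region (5.33%), 9 in a 3′ untranslated region and 127 between genes (7.20%). Of the H3K9me3 peaks off H3K4me3, 61.6% lay between genes and 1.56% in a promoter, which the rule again decides in part. A total of 1517 (85.9%, 84.2 to 87.5%) had their middle within 3000 bp of the nearest protein-coding gene start. Most sat just downstream of it: the median was 254 bp into the gene (quartiles 25 and 502 bp), and 76.4% (74.2 to 78.5%) were on the downstream side. The 8513 EA-HFSC H3K9me3 peaks on EA-HFSC H3K4me3 within 3000 bp of a start had a median of 284 bp and 78.4% (77.5 to 79.2%) downstream, so both sets had nearly the same offset.

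**Figure D4:**
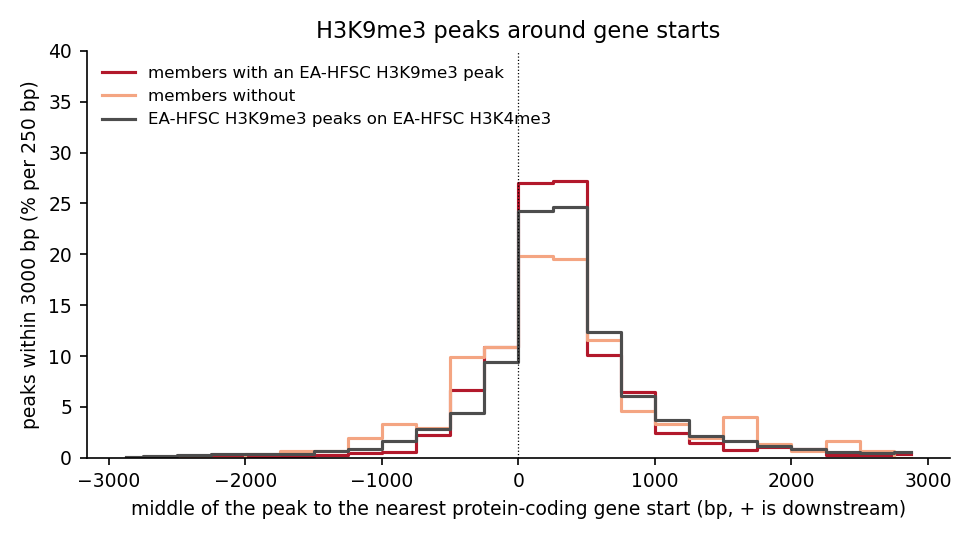
Distance from the nearest protein-coding gene start to the middle of the peak (bp, x axis, positive inside the gene), as the percent of the peaks within 3000 bp per 250 bp, for non-LC-HFSC H3K9me3 peaks on H3K4me3 with and without an EA-HFSC peak and for EA-HFSC H3K9me3 peaks on EA-HFSC H3K4me3. All 3 curves peak in the first 500 bp of the gene, and the peaks without an EA-HFSC peak spread further upstream.

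At the level of genes, 1796 of 22367 protein-coding genes had one of these peaks within 3000 bp of the start, and 1795 of them were among the 12669 genes with H3K4me3 there, so 14.2% of genes with H3K4me3 carried one. Of the 1795 genes, 1543 had an EA-HFSC H3K9me3 peak in the same window (86.0%, 84.3 to 87.5%), against 65.7% (64.8 to 66.6%) of the other genes with H3K4me3 and 68.6% of all of them. Divergent promoters, with a protein-coding gene on the opposite strand starting within 1000 bp upstream, made up 19.9% (18.1 to 21.8%) of the 1795 genes and 10.6% (10.1 to 11.2%) of the others. Divergent promoters were also more frequent under wide H3K4me3. Within the widest quartile of H3K4me3 the shares were 24.0% (21.5 to 26.7%) and 17.0% (15.9 to 18.2%), a difference of 7.03 points (4.23 to 9.97). In the third quartile they were 17.9% (15.1 to 21.2%) and 9.86% (8.95 to 10.8%), a difference of 8.08 points (5.03 to 11.5). In the second quartile they were 3.51% (1.62 to 7.44%) and 3.23% (2.58 to 4.05%). The narrowest quartile had 2 of 21 genes (9.52%, 2.65 to 28.9%) and 2.34% (1.48 to 3.66%).

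Proteasome and mitochondrial ribosome genes carried an H3K9me3 peak more often than the 14.2% of all genes with H3K4me3. In the highest-scoring quartile of H3K4me3 peaks 24.3% lay beneath an H3K9me3 peak, a value that the intervals of both lists hold. No gene list was matched for H3K4me3 score. The gene lists were chosen with earlier results of these data known. Of 47 proteasome genes with H3K4me3, 13 carried an H3K9me3 peak (27.7%, 16.9 to 41.8%). Psmd6, a subunit of the regulatory lid, had a peak of score 78.8 (chr14:14952546-14953581) with an EA-HFSC peak of score 89.0 over it. Psmc5, an ATPase of the base, had 77.6 and 132 in the same order, and Psmd13 had 69.8 and 55.5. Of 72 mitochondrial ribosomal protein genes 17 carried one (23.6%, 15.3 to 34.6%), among them Mrpl34 at score 76.5. Mrpl36 had a peak of score 41.5 at 256 bp from its start (chr13:73468387-73469039), and a stronger one of 93.2 in its window lay at the neighbouring Ndufs6, on another H3K4me3 peak. For cytosolic ribosomal proteins it was 14 of 80 (17.5%, 10.7 to 27.3%), an interval that holds the value of all genes. Rps3 had the highest score of them, 95.5 in non-LC-HFSCs and 173 in EA-HFSCs (chr7:106631294-106632174), and Rps25 scored 71.6 and 228. Neither peak overlapped H3K9me3 of non-EA-HFSCs or LC-HFSCs. The nearest start was that of a neighbour, and not of the gene named, for the peaks given at Rps25 (Trappc4), Psmc5 (Ftsj3), Kdm4d (Cwc15), Ehmt2 (C2) and Cep170 (Sdccag8).

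Cell cycle genes carried a peak at 10 of 46 (21.7%, 12.3 to 35.6%). All 10 had an EA-HFSC H3K9me3 peak, as did 37 of the 46 (80.4%), against 68.6% of all genes with H3K4me3. At Cdk6, a kinase that drives cells out of G1 phase, the peak lay on the start (chr5:3343439-3344355, score 106) within 4980 bp of H3K4me3, and EA-HFSCs had a peak of 3956 bp and score 361. The tumour suppressor Trp53 had a peak of score 44.95 at 805 bp from its start (chr11:69394331-69395001), with an EA-HFSC score of 99.2. A stronger peak of score 106 (chr11:69392425-69392893) on the same H3K4me3 peak lay inside the neighbouring Wrap53, with an EA-HFSC score of 132. Mcm5, of the replicative helicase, scored 82.7 and 78.7. Cdkn2b, an inhibitor of Cdk4 and Cdk6, scored 63.1 and 111 and was the only 1 of these 4 with H3K27me3 in the same cells (score 697).

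Genes of the histone methylation enzymes were themselves among the carriers. For H3K4 methylation it was 6 of 16 genes with H3K4me3 (37.5%, 18.5 to 61.4%). They included Rbbp5 (score 76.3), Mll3 (61.8), Setd1a (61.6) and Mll2, now called Kmt2d (50.3). EA-HFSCs had H3K9me3 at all 6, and at 15 of the 16 genes (93.8%), against 68.6% of all genes with H3K4me3. For H3K9 methylation it was 5 of 21 (23.8%, 10.6 to 45.1%), with the demethylase genes Kdm4a (73.1) and Kdm4d (64.7) and the methyltransferase genes Ehmt1 (66.9) and Ehmt2 (41.4). The Ehmt2 peak itself had no EA-HFSC peak over it, although the gene had one within 3000 bp of the start. For H3K27 methylation it was 3 of 13, the Polycomb genes Eed (61.1) and Jarid2 (43.6) and the demethylase gene Kdm6b (56.1). The last 2 intervals hold the value of all genes.

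Zinc finger genes named Zfp, a class where H3K9me3 is well known, carried a peak at 51 of 296 (17.2%, 13.4 to 21.9%), again a range that holds 14.2%. Zfp141 had the highest score (108, chr7:49760408-49761097), with 82.6 in EA-HFSCs. Zfp369 scored 94.8 and had no EA-HFSC peak over it. Among 18 imprinted genes with H3K4me3, 4 carried one: Slc38a4 (52.1), Mkrn3 (50.6), Ube3a (46.5) and Trappc9 (44.8). At Slc38a4 and Mkrn3 the H3K9me3 peak reached the H3K4me3 peak over 56 and 230 bp only.

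Genes of hair follicle signalling were near the value of all genes, with 7 of 55 (12.7%, 6.30 to 24.0%). Egfr, the receptor of epidermal growth factors, scored 101 (chr11:16651931-16653330) and 196 in EA-HFSCs. Tgfbr2, a receptor of TGF-β, scored 72.9 and 92.9, and Id1, a target of BMP signalling, scored 65.3 and 74.1. Fzd2, a Wnt receptor, scored 58.1 and had no EA-HFSC peak over its H3K9me3 peak. Bulge markers carried one at 2 of 12 genes. Sox9, a transcription factor needed for bulge stem cells, had a peak of 592 bp and score 54.8 (chr11:112643408-112643999) on 5203 bp of H3K4me3, with H3K27me3 of score 350 in the same cells and no H3K9me3 in any other population. Gas1 scored 48.0, and 48.1 in EA-HFSCs. Of the basal keratinocyte markers Perp carried one (51.3) of 16. Solute carriers had 21 of 194 (10.8%, 7.19 to 16.0%), ubiquitin E2 enzymes 3 of 31 (9.68%, 3.35 to 24.9%), histone genes 5 of 61 (8.20%, 3.55 to 17.8%), Hox genes 1 of 24 (Hoxb7) and Rab GTPases 2 of 49 (4.08%, 1.13 to 13.7%). Of the germline genes 1 of 3 carried one, Zcwpw1, whose start lies beside that of Mepce. None of 10 keratin genes with H3K4me3 did (0%, 0 to 27.8%), and no fibroblast, melanocyte or leukocyte marker did.

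The study's own sets of genes, defined by mRNA, were taken up after the values of the other lists were seen. Of the constantly expressed genes with H3K4me3, 79 of 394 carried a peak (20.1%, 16.4 to 24.3%), an interval above the 14.2% of all genes, among them Gosr2 (86.0) and Ube2b (82.2). It was 10 of 89 (11.2%, 6.22 to 19.5%) for genes lower in the bulge, Egln3 (63.4) among them, and 16 of 173 (9.25%, 5.77 to 14.5%) for genes higher in the bulge, with Cep170 (118) and Pdzrn3 (80.8) first. In the same order 82.5%, 62.9% and 43.9% of the genes with H3K4me3 had an EA-HFSC H3K9me3 peak, against 68.6% of all genes with H3K4me3. The 3 sets stood in the same order as in non-LC-HFSCs, and these orders were not tested.

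**Figure D5:**
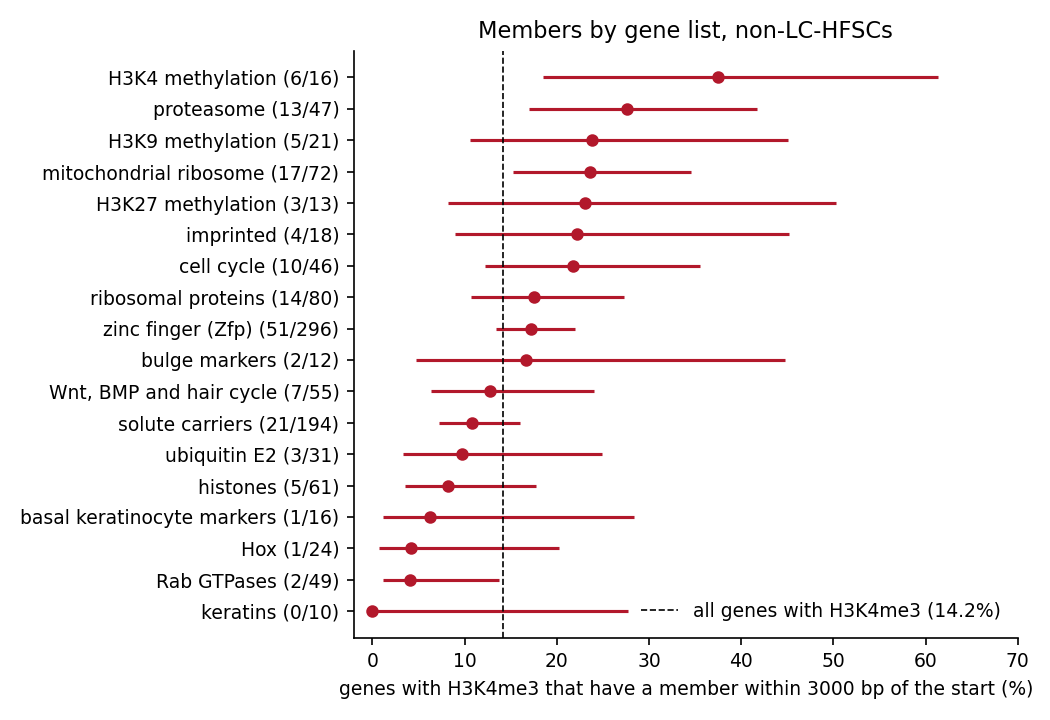
Percent of genes with H3K4me3 in non-LC-HFSCs that had an H3K9me3 peak on H3K4me3 within 3000 bp of the start (x axis), by gene list, with 95% Wilson intervals; the numbers beside each name are carriers over genes with H3K4me3, and the dashed line is 14.2%. Among the lists plotted, which leave out the study's own sets, the intervals of H3K4 methylation, proteasome and mitochondrial ribosome lie above the line and that of the Rab GTPases below it.

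Of the 10 highest-scoring on placed chromosomes, with scores from 143 to 441, 7 also carried H3K27me3 in the same cells, 6 had H3K9me3 in non-EA-HFSCs and 9 in EA-HFSCs, and only 1 lay wholly inside its H3K4me3 peak. The first was at Klf14, a Krüppel-like factor (chr6:30906156-30908585, 2430 bp, score 441), and met the rule by 11 bp. It had H3K9me3 scores of 1303 in EA-HFSCs and 707 in non-EA-HFSCs and none in LC-HFSCs, and an H3K27me3 score of 858 in the same cells. The peak at Zic1 and Zic4, zinc finger factors of neural development, scored 197 against 1224 in EA-HFSCs and 54.7 in non-EA-HFSCs. Foxc2, a forkhead factor, scored 184 against 853 and 55.9. The peak 14117 bp downstream of the start of Sox2, a factor of pluripotent and dermal papilla cells, scored 187 against 1171 in EA-HFSCs and had no peak in non-EA-HFSCs. The Dmrta2 peak scored 162 against 860 in EA-HFSCs, and the peak in an intron near Skor1, of the Ski family of corepressors, 143 against 750. At both genes H3K27me3 reached 3100 in non-LC-HFSCs and non-EA-HFSCs had no H3K9me3. The peak 21763 bp from the start of Abt1 scored 219 against 626 in EA-HFSCs and 106 in non-EA-HFSCs.

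The remaining 3 of the 10 had no H3K27me3 in non-LC-HFSCs. At the predicted gene Gm8290 the peak scored 177, against 941 in non-EA-HFSCs, 297 in LC-HFSCs and 137 in EA-HFSCs. A peak in the protocadherin γ cluster of cell adhesion genes on chromosome 18 scored 168, against 662, 53.0 and 44.4 in the same order. At 3110070M22Rik and Gm7120 the peak scored 279 over 3827 bp, lay inside 7612 bp of H3K4me3, and had no H3K9me3 peak elsewhere. The protocadherin γ cluster held 7 of the 1769 peaks, and 7 of these had H3K9me3 in non-EA-HFSCs, 6 in LC-HFSCs and 6 in EA-HFSCs. It thus gave 6 of the 11 peaks that LC-HFSCs shared and 7 of the 32 that non-EA-HFSCs shared.

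Of the peaks without an EA-HFSC peak, the highest scores after 3110070M22Rik were at Efnb2, which encodes the ephrin-B2 ligand (chr8:8660757-8661981, score 141, on 9373 bp of H3K4me3), 25723 bp downstream of the start of Wnt10a, a Wnt ligand of hair and tooth development (chr1:74863447-74864179, score 132), at Trim24, a chromatin-binding coregulator (score 113), and at Glb1l and Stk16 (score 107). The H3K4me3 there scored 3100, 1769, 1047 and 1928. Trim24 met the rule by 59 bp and had an H3K9me3 score of 693 in non-EA-HFSCs. The other 3 had no H3K9me3 peak in any other population, whereas all 4 had H3K4me3 in all of them.

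Among the 50 peaks scoring 100 or more, 28.0% (17.5 to 41.7%) carried H3K27me3, 22% (12.8 to 35.2%) had H3K9me3 in non-EA-HFSCs and 64.0% (50.1 to 75.9%) lay wholly inside H3K4me3. For the 1719 below 100 it was 5.76% (4.75 to 6.96%), 1.22% (0.800 to 1.86%) and 93.4% (92.2 to 94.5%). The 32 peaks shared with non-EA-HFSCs lay on H3K4me3 peaks with a median width of 1200 bp and a median score of 197, against 2578 bp and 2190 for the rest. Only 6 of the 32 were wholly inside their H3K4me3 peak, and 16 carried H3K27me3. The 50 peaks scoring 100 or more lay on H3K4me3 of about the same median width and score as the rest (2461 bp and 2021 against 2560 bp and 2169). These medians do not describe the strongest of them. The 10 highest-scoring on placed chromosomes all lay on weak H3K4me3, with scores from 60.3 near Skor1 to 483 at Klf14. Weak H3K4me3 thus went with the peaks shared with non-EA-HFSCs and with these 10, but not with the 50 as a group.

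The peaks were spread over the autosomes, where 7.43% to 10.6% of the H3K4me3 peaks of a chromosome lay beneath one. On the X chromosome it was 9 of 489 (1.84%, 0.971 to 3.46%), against 9.19% (8.78 to 9.62%) of 18484 on the autosomes. H3K4me3 on the X was a little weaker (median score 614 against 718). Among the widest quartile of H3K4me3 peaks the shares were 3 of 68 on the X (4.41%, 1.51 to 12.2%) and 18.6% (17.5 to 19.8%) on the autosomes. Among the highest-scoring quartile they were 3 of 32 (9.38%, 3.24 to 24.2%) and 24.4% (23.2 to 25.7%), and these intervals overlapped. EA-HFSC H3K9me3 peaks lay on 35.4% (31.3 to 39.7%) of X-linked and 45.5% (44.8 to 46.3%) of autosomal H3K4me3 peaks. The labels give male mice, whose cells carry 1 copy of the X, while the study's methods report both sexes for most analyses. The part of copy number in these shares was not tested.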

How the data were processed

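ChIP-seq libraries of 3 marks and IgG from 4 sorted populations (16 samples) gave 12 deposited peak lists on mm9. The authors trimmed single-end reads (Trimmomatic 0.22, a tool that the study's methods do not name). Per those methods they aligned the reads with Bowtie2, pooled replicates and called peaks with MACS against IgG. By their account more reads would have given more H3K27me3 and H3K9me3 peaks. The deposited score of each peak, as the authors' caller gave it, is −10 log10 of its p-value, and it depends on depth, so scores of different lists are set side by side only as calls of those lists. A peak missing from a list is one that was not called there.

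Overlaps of at least 1 bp were counted with Python 3.11.15 (pandas 2.3.3), checked on made-up peaks with known answers and against bedtools 2.31.1. Gene positions came from GENCODE vM1 on NCBIM37, whose chromosome lengths match mm9 (0 peaks ran past a chromosome end). Protein-coding genes on 21 chromosomes were used, with a window of 3000 bp around the annotated start. In the gene lists, 5 older symbols were matched through RefSeq synonyms and 4 symbols (and 2 of the study's own lists) stayed unmatched. The 4 peaks on unplaced sequence were left out of positions.

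The genes named are those at the 10 highest-scoring peaks, the 5 widest H3K4me3 peaks, the 5 highest-scoring peaks with and without an EA-HFSC peak, and up to 4 genes of each list by score. Some genes that this rule names are not reported here. The peaks and the lists were chosen with earlier results of these data known. Alternatives covered the score minimum, chromosomes, merging, overlap rule, list length and gene windows. With 1 list per population and mark, no replicate could be left out and no test was run.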

Additional observations from a re-analysis of the deposited data

How the results depend on the processing

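Of 51 recalculations 26 stayed within the interval of the value reported (for counts, within 1.5 times) and 25 did not; no order between classes turned around. Holding every list to scores of at least 50 left 900 peaks at 931 genes, with EA-HFSC shares of 72.9% for these peaks, 74.9% for the H3K4me3 peaks beneath and 36.5% for other H3K4me3 peaks. A minimum of 100 left 44 peaks at 43 genes, with shares of 54.5%, 22.4% for H3K9me3 peaks off H3K4me3, 56.8% beneath, 17.1% for other H3K4me3 peaks, and 45.2% in promoters. Shortening the EA-HFSC list to the length of the non-LC-HFSC list gave 63.6%, 11.5%, 66.1% and 29.9%. Merging peaks less than 1 kb apart gave 43.8% for other H3K4me3 peaks and a median width of 2614 bp beneath. Requiring the middle of the H3K9me3 peak inside the other gave 13.4% off H3K4me3 and 40.01% for other H3K4me3 peaks. A promoter of 500 bp to either side held 72.5%. Alternatives chosen after seeing the data were weighting other H3K4me3 peaks to the score (75.1%) or width (62.9%) of those beneath, and at least 50% cover by the EA-HFSC peak (75.7% and 13.0%). The causes were not tested. No paired analysis was possible because each population and mark has 1 list. Read totals are not in the lists, and 869 of the peaks score within 10 of the calling threshold. By the study's methods LC-HFSCs had more reads than EA-HFSCs, although their H3K9me3 list was shorter. For the non-HFSCs the methods give only a range over all samples, so there depth cannot be told apart from population. The part of depth in the shares was not tested.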
